A study of Homo sapiens with 8 samples.

Results

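The TRPM (melastatin) family of cation channels was examined on bead arrays of 2 human neuroblastoma cell lines in which 1 member, TRPM7, was targeted by an shRNA. Members were all probes whose gene symbol in the deposited table was TRPM1, TRPM2, TRPM3, TRPM4, TRPM5, TRPM6, TRPM7 or TRPM8. This gave 12 probes of 8 genes out of 47322 probes on the array. TRPM3 had 3 probes, TRPM2 and TRPM8 had 2 each, and the other 5 genes had 1 each.

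To study which genes depend on TRPM7, the study compared stably transduced cells on Illumina HumanHT-12 v4 arrays, which report 1 averaged bead signal per probe. SH-SY5Y cells, which are neuroblastic, and SH-EP2 cells, which are epithelial-like, both derive from the SK-N-SH tumour line, and each carried a lentiviral TRPM7 shRNA or a nonfunctional control shRNA. All 4 groups had thus been transduced with a pLKO vector and selected with puromycin, and each held 2 arrays. The paper reports that samples were made and analyzed in duplicate. The sources used here do not say whether the replicates were separate cultures. The p-values thus measure only the spread between these arrays, which may be technical. Only 1 TRPM7 shRNA sequence was used on the arrays, and effects of that sequence on other transcripts were not tested here. Outside the arrays, the paper used a second TRPM7 shRNA in SH-EP2 cells as an off-target control and reports that it also reduced migration. Median signals ranged from 104.7 to 119.9 per array, and 40.8% to 44.2% of probes were detected (detection p under 0.05 against the negative control beads of the array). Most marker genes followed the labelled identity of the lines. Of 10 noradrenergic markers, 9 were higher in control SH-SY5Y cells and TH was undetected, and of 10 mesenchymal markers, 8 were higher in control SH-EP2 cells while TWIST1 and VIM were higher in SH-SY5Y cells (limma, adjusted p under 0.05).

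TRPM channels assemble as tetramers in the plasma membrane or in vesicles, and differ widely in what opens them and which ions they pass. TRPM6 and TRPM7 carry a cytosolic alpha-kinase domain and conduct divalent cations including magnesium. TRPM4 and TRPM5 are opened by intracellular calcium and pass monovalent cations. TRPM2 is opened by ADP-ribose during oxidative stress, TRPM3 by pregnenolone sulphate and heat, and TRPM8 by cold and menthol, whereas TRPM1 acts in retinal bipolar cells. In such a family a related channel could in principle replace the targeted one, and the arrays allow the transcript side of that question to be examined.

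The sequences directly upstream of the genes differed between the members. They are shown for the target TRPM7 and for the 3 members detected on at least 4 arrays, because the results turn on these. The 3 members are TRPM4 in both lines, and TRPM6 and TRPM8 in SH-EP2 cells. Each is the 250 bases before the RefSeq gene start on GRCh38.p14, 5′ to 3′ on the strand of the gene, with matches to the 3 motifs described after the sequences in capitals. The regions are chr15:50686798-50687047 (minus strand, TRPM7), chr19:49157542-49157791 (plus strand, TRPM4), chr9:74887922-74888171 (minus strand, TRPM6) and chr2:233917123-233917372 (plus strand, TRPM8).
TRPM7: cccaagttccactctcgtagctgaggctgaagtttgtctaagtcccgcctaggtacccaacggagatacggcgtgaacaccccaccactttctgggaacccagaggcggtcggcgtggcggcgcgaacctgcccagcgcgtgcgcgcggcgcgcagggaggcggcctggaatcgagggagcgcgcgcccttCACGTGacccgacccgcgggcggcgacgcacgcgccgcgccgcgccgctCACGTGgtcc
TRPM4: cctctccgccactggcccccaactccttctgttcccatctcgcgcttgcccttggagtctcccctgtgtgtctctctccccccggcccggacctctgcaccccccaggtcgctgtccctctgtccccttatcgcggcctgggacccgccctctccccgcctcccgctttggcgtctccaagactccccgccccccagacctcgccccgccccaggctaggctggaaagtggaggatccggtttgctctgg
TRPM6: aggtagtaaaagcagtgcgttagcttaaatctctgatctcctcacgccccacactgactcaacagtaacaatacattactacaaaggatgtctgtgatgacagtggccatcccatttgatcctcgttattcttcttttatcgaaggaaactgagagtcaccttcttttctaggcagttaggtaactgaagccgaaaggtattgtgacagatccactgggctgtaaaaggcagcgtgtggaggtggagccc
TRPM8: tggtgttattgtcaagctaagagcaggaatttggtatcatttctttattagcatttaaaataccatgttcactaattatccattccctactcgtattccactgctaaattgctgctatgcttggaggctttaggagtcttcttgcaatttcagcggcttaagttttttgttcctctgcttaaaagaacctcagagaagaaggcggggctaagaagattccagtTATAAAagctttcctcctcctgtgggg

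The window of TRPM7 held 38 CpG dinucleotides, and that of TRPM4 held 16. The windows of TRPM6 and TRPM8 held 6 and 3, against a median of 10 over 27305 RefSeq promoters of the same length. Among the remaining members, TRPM2 had 26, TRPM3 had 23 and TRPM1 had 4, and TRPM5 had no entry. Both strands were searched for 3 motifs, and no window of a member held more than 1 kind of them. The E-box CACGTG, a palindrome that MYC-family factors can bind, occurred 2 times before TRPM7 and 1 time before TRPM2, and 6.46% of all promoters held it. The TATA motif TATAAA was found before TRPM8, as in 11.2% of all promoters. A second E-box, CAGGTG, was found before TRPM3, as in 17.5% of all promoters. These motif matches describe the letters in the window and were not tested against expression.

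Most TRPM transcripts were at the level of the negative control beads. Of the 12 probes, 6 were detected on no array, namely the probes of TRPM1, TRPM5 and TRPM7, 1 of the TRPM2 probes (ILMN_1743987) and 2 of the TRPM3 probes (ILMN_1740622 and ILMN_1815938). A further 2 probes were detected on 1 array each, 3 on 4 arrays and 1 on all 8 arrays. Over all probes of the array, 40.0% were detected on no array and 30.8% on all 8. In total 22 of 96 pairs of TRPM probe and array were detected, and 20 of them at a detection p under 0.01. By group, each SH-EP2 array detected 4 or 5 TRPM probes, and each SH-SY5Y array 1 or 2. Probes at background show only that the arrays could not measure these transcripts, not that the transcripts were absent.

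**Figure D1:**
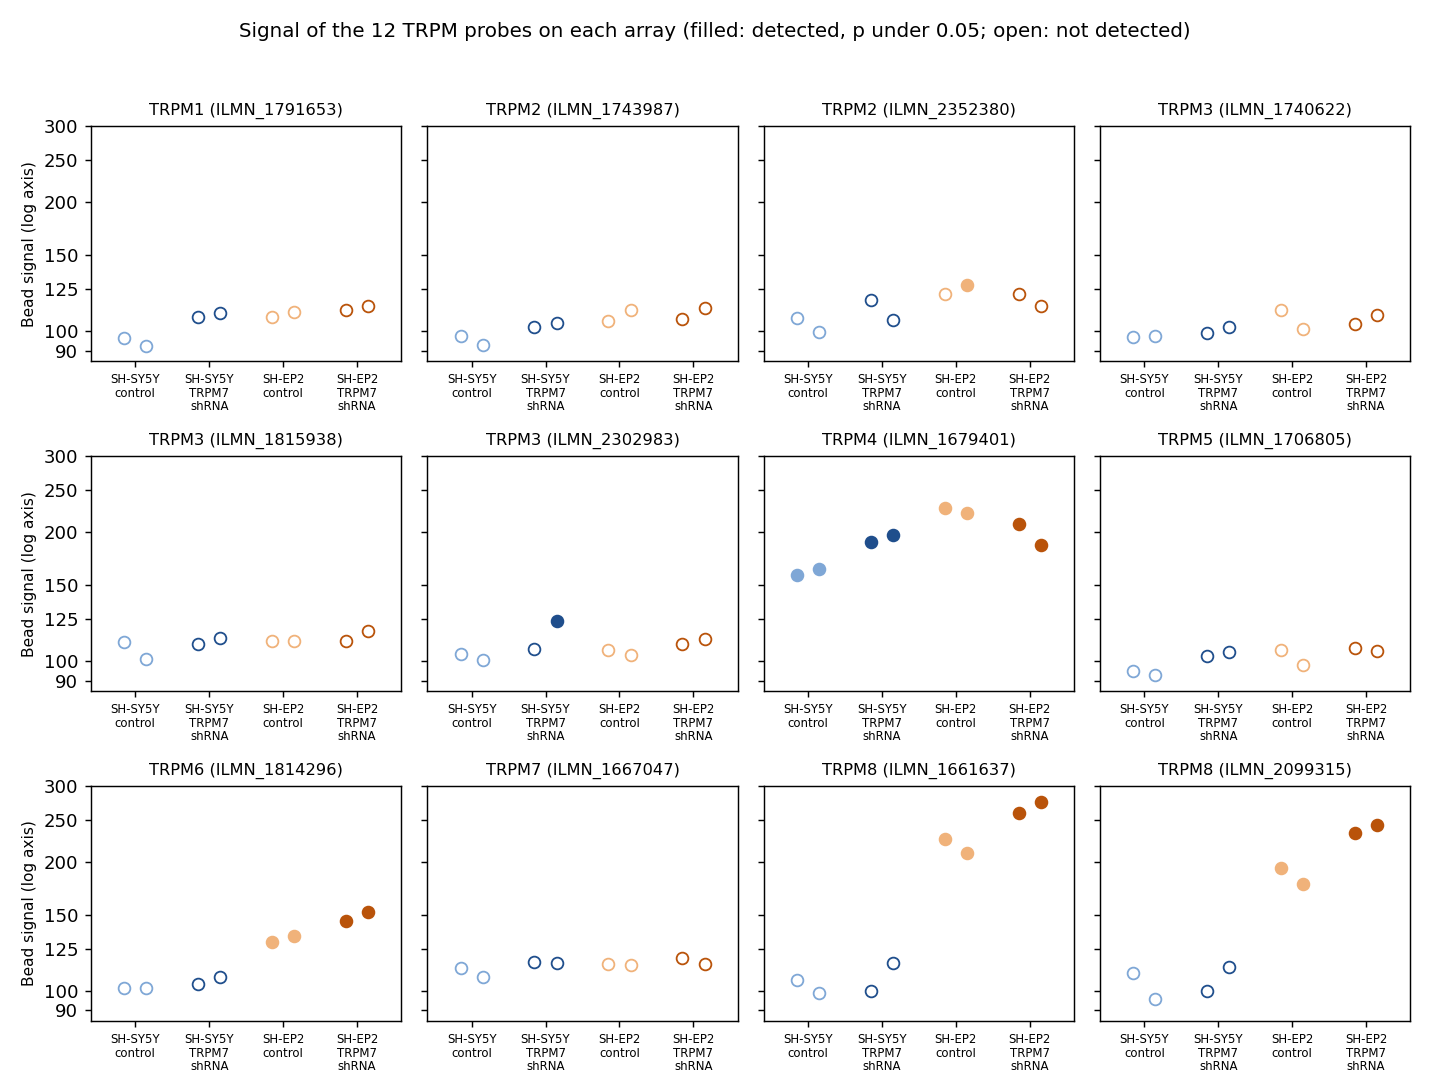
Bead signal (log axis, arbitrary units) of each of the 12 TRPM probes on the 8 arrays, 2 per group, with filled points for arrays that detected the probe and open points for those that did not. TRPM4 was detected on all 8 arrays, TRPM6 and both TRPM8 probes on the 4 SH-EP2 arrays only, and TRPM7 on none.

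TRPM7, the channel kinase that the shRNA targets, was itself not measurable. The bead signals of its probe (ILMN_1667047) were 115 and 115 on the SH-EP2 control arrays and 119 and 116 on the SH-EP2 TRPM7 shRNA arrays. In SH-SY5Y cells they were 113 and 108 on the control arrays and 117 and 116 on the TRPM7 shRNA arrays. The TRPM7 shRNA arrays were thus slightly above the control arrays in both lines, and all values stood between 0.977 and 1.03 times the median signal of the array. Detection p-values ranged from 0.0753 to 0.201, so that no array passed the detection threshold and no fold change is given. After normalization, the log2 levels were 2.63 ± 0.23 (SD, n = 2) in control and 2.56 ± 0.14 in TRPM7 shRNA SH-EP2 cells, and 2.92 ± 0.15 and 2.66 ± 0.05 in SH-SY5Y cells, where the TRPM7 shRNA arrays were now both below the controls (adjusted p = 0.911). The arrays thus give no check of the knockdown that the labels state, and every change below is between arrays as labelled. The paper describes a separate measurement of TRPM7 mRNA in both lines by quantitative RT-PCR, which is not part of these data.

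TRPM6, the other channel kinase and a magnesium channel of kidney and gut epithelium, was detected in SH-EP2 cells only. The bead signals of its probe (ILMN_1814296) were 130.1 and 134 on the SH-EP2 control arrays and 145 and 153 on the SH-EP2 TRPM7 shRNA arrays. These signals were low, at 1.10 to 1.29 times the array median, and the first control array had a detection p of 0.0117. In SH-SY5Y cells the signals were 101 and 101 with the control shRNA and 104 and 107 with TRPM7 shRNA, none of which was detected. The SH-EP2 arrays were all above the SH-SY5Y arrays, and within SH-EP2 the TRPM7 shRNA arrays were both above the control arrays. On the log2 scale after normalization, the SH-EP2 means were 4.24 ± 0.54 (SD, n = 2) in the controls and 5.05 ± 0.28 with TRPM7 shRNA, a difference of 0.81 (95% interval −0.18 to 1.81) that did not pass the test (adjusted p = 0.540). The interval therefore includes no change as well as a 3.51-fold increase. Between the control arrays of the lines, TRPM6 was at least 2.11-fold higher in SH-EP2 cells. This bound sets the mean of the SH-EP2 arrays against the lowest detected signal of the SH-SY5Y arrays, and was not tested itself. The fitted log2 difference, which uses the undetected values, was 2.13 (adjusted p = 0.00153). The SH-SY5Y control mean of TRPM6 was 2.11 ± 0.34 on the log2 scale. The size of the bound depended on the background model, with at least 1.42-fold under neqc, 1.17-fold under normexp and 1.11-fold without correction. Since each array measured bulk RNA, fewer expressing cells and less RNA per cell cannot be told apart.

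TRPM8, the cold and menthol receptor of sensory neurons, was likewise detected on all SH-EP2 arrays and on no SH-SY5Y array. The signals of probe ILMN_1661637 were 225 and 209 on the SH-EP2 control arrays and 260.0 and 275 on the SH-EP2 TRPM7 shRNA arrays, but 106 and 99.1 on the SH-SY5Y control arrays and 100.2 and 116 on the SH-SY5Y TRPM7 shRNA arrays. The signals of probe ILMN_2099315 were 193 and 177 on the SH-EP2 control arrays and 233 and 244 on the SH-EP2 TRPM7 shRNA arrays, but 110.1 and 95.6 on the SH-SY5Y control arrays and 99.8 and 114 on the SH-SY5Y TRPM7 shRNA arrays. Both probes thus separated the lines with no overlap. Between the control arrays, SH-EP2 cells were at least 12.1-fold higher by ILMN_1661637 (fitted log2 difference 4.58, adjusted p = 2.41e-09). By ILMN_2099315 they were at least 8.38-fold higher (fitted log2 difference 4.02, adjusted p = 5.16e-08). The adjusted p-values belong to the fitted differences and not to the bounds. The SH-EP2 control means were 6.76 ± 0.01 and 6.23 ± 0.04 (log2, SD, n = 2) and the undetected SH-SY5Y control means 2.18 ± 0.07 and 2.21 ± 0.52. These bounds also depended on the background model. For ILMN_1661637 they were 4.57-fold under neqc, 2.34-fold under normexp and 1.85-fold without correction, and for ILMN_2099315 they were 3.40-fold, 1.90-fold and 1.57-fold. Both probes passed the test under all 17 alternatives.

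Within SH-EP2 cells, both TRPM8 probes had TRPM7 shRNA arrays that were all above the control arrays. The log2 difference was 0.50 (95% interval −0.24 to 1.25) for ILMN_1661637, with an adjusted p of 0.646. For ILMN_2099315 it was 0.73 (−0.08 to 1.54), with an adjusted p of 0.472. The SH-EP2 means with TRPM7 shRNA were 7.26 ± 0.11 and 6.96 ± 0.11 (log2, SD, n = 2). Neither probe passed the test in the fit over both lines. That fit draws its estimate of the spread from all 4 groups, including the undetected SH-SY5Y arrays. There the means with TRPM7 shRNA were 2.03 ± 0.82 and 1.94 ± 0.72. The call depended on the processing, since ILMN_2099315 passed when SH-EP2 arrays were normalized and fitted alone (0.74, adjusted p = 0.00603), without background correction (0.34, adjusted p = 0.00670) and with the normexp correction (0.42, adjusted p = 0.0247). ILMN_1661637 passed in SH-EP2 arrays alone (0.51, adjusted p = 0.0423) and without background correction (0.27, adjusted p = 0.0409). Over 18 alternatives the difference stayed above 0 for both probes, with ranges of 0.27 to 0.58 and 0.34 to 0.80, while the adjusted p-values ranged from 0.0409 to 0.874 and from 0.00603 to 0.785.

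**Figure D2:**
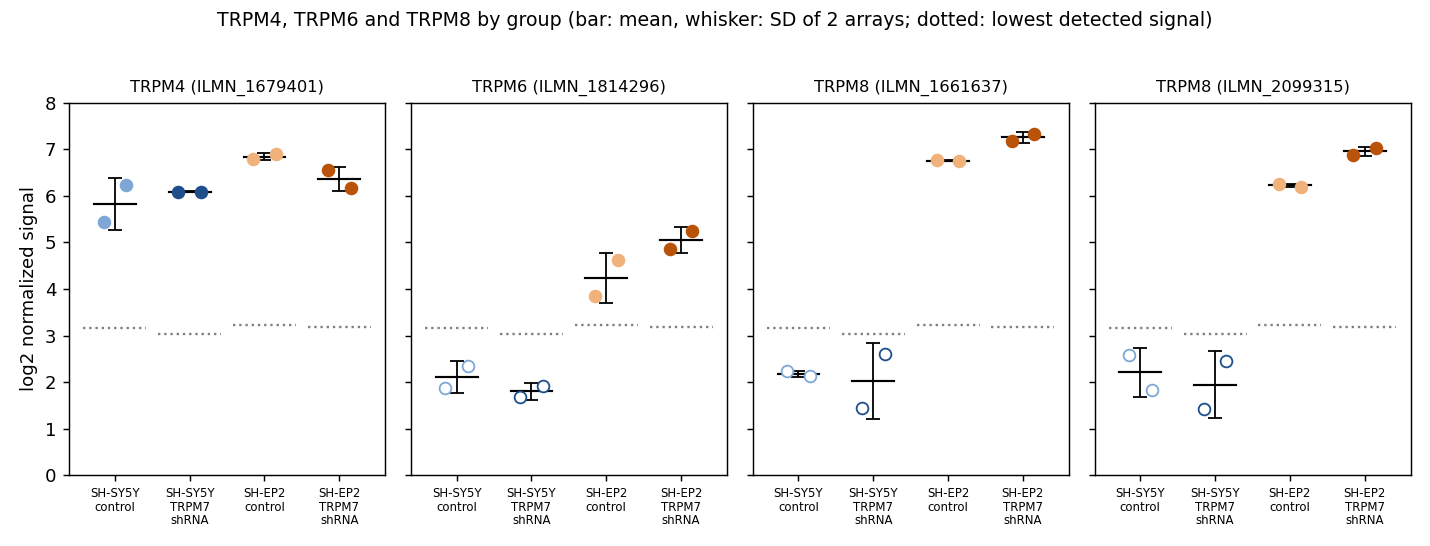
Normalized log2 signal of the 4 TRPM probes detected on at least 4 arrays, by group, with points for the 2 arrays of each group (filled, detected; open, not detected), bars for the mean and whiskers for the SD. TRPM6 and both TRPM8 probes lie above the lowest detected signal (dotted, mean of the group) in SH-EP2 and below it in SH-SY5Y, whereas TRPM4 lies above it in all 4 groups.

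TRPM4, the calcium-activated monovalent cation channel, was the only member measured in both lines. The signals of its probe (ILMN_1679401) were 228 and 221 on the SH-EP2 control arrays and 208 and 186 on the SH-EP2 TRPM7 shRNA arrays. In SH-SY5Y cells they were 158 and 164 with the control shRNA and 189 and 197 with TRPM7 shRNA. In the deposited signals the TRPM7 shRNA arrays were thus below the controls in SH-EP2 and above them in SH-SY5Y, without overlap. After normalization the SH-SY5Y groups overlapped, because the control values were 5.43 and 6.23 (log2) and the TRPM7 shRNA values 6.09 and 6.09. The SH-SY5Y control array at 6.23, replicate 2, had the lowest median signal of all arrays (104.7).

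The change of TRPM4 did not pass the test in either line. In SH-EP2 cells the log2 difference between TRPM7 shRNA and control was −0.48 (95% interval −0.97 to 0.0034, adjusted p = 0.404). In SH-SY5Y cells it was 0.26 (−0.23 to 0.74, adjusted p = 0.770), and −0.14 without SH-SY5Y control replicate 1 (adjusted p = 0.878). The difference between these changes was 0.74 (0.06 to 1.43) and had an adjusted p of 0.433. Between the control arrays, TRPM4 was 2.02-fold higher in SH-EP2 cells (log2 difference 1.02, SE 0.23, interval 0.53 to 1.50, adjusted p = 0.00179). The size of this difference depended on the background model, with 0.79 under neqc, 0.53 under normexp and 0.41 without correction (log2). Without SH-SY5Y control replicate 1 this difference was 0.62 with an adjusted p of 0.0562. On the log2 scale the order of the TRPM4 group means was SH-EP2 control (6.85 ± 0.09), SH-EP2 TRPM7 shRNA (6.37 ± 0.27), SH-SY5Y TRPM7 shRNA (6.09 ± 0.01) and SH-SY5Y control (5.83 ± 0.56, SD, n = 2 each). Neighbouring groups within a line did not differ beyond the test threshold, and the neighbouring TRPM7 shRNA groups of the lines were not compared.

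TRPM2, the ADP-ribose-gated calcium channel, was detected on 1 array by 1 of its probes. The signals of ILMN_2352380 were 122 and 128 on the SH-EP2 control arrays, of which the second was detected, and 122 and 114 on the SH-EP2 TRPM7 shRNA arrays. The detection p-value of the detected array was 0.00519. In SH-SY5Y cells the signals were 107 and 99.3 with the control shRNA and 118 and 106 with TRPM7 shRNA. On the normalized scale the fitted log2 difference between TRPM7 shRNA and control in SH-EP2 cells was −0.97 (−2.06 to 0.11). This interval includes no change, and the difference did not pass the test (adjusted p = 0.474). The SH-EP2 control mean was 1.34-fold above the lowest detected signal of the SH-EP2 TRPM7 shRNA arrays. Only 1 of the 2 control arrays behind that mean was detected, so it sets no lower limit on the change. Against control SH-SY5Y cells, the log2 difference of control SH-EP2 cells was 1.34 (0.26 to 2.43), which did not pass either (adjusted p = 0.0658). Their mean was 1.35-fold above the lowest detected signal of the SH-SY5Y control arrays. The second TRPM2 probe, ILMN_1743987, ranged from 92.9 to 113 over the 8 arrays with detection p-values of 0.203 to 0.897.

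TRPM3, a heat- and steroid-activated channel, passed detection on 1 array. Its probe ILMN_2302983 had signals of 107 and 124 on the SH-SY5Y TRPM7 shRNA arrays, of which the second was detected, against 104 and 101 on the SH-SY5Y control arrays. The detection p-value of the detected array was 0.0273. On the SH-EP2 arrays it ranged between 103 and 112. The mean of the SH-SY5Y TRPM7 shRNA group was 2.58 ± 0.99 (log2, SD, n = 2), which is below the lowest detected signal of its arrays, and no fold is given. The other TRPM3 probes ranged from 97.0 to 112 (ILMN_1740622) and from 101 to 117 (ILMN_1815938) and were at background throughout.

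TRPM1, the channel of retinal bipolar cells and melanocytes, ranged from 92.4 to 115 over the 8 arrays. In SH-SY5Y cells its signals were 96.2 and 92.4 with the control shRNA and 108 and 110.3 with TRPM7 shRNA, and none was detected. TRPM5, the calcium-activated channel of taste cells, ranged from 92.6 to 107 with detection p-values of 0.735 to 0.953. Neither probe exceeded the median signal of any array.

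Across the family, no member passed the test when TRPM7 shRNA was compared with control. In SH-SY5Y cells 0 of 12 probes had an adjusted p under 0.05 (limma), while 2.11% of all probes on the array did. In SH-EP2 cells 0 of 12 passed, against 3.02% of all probes. Even at an unadjusted p under 0.05, 0 of 12 TRPM probes passed in either line, compared with 11.4% of all probes in SH-SY5Y and 12.6% in SH-EP2. The lowest adjusted p was 0.642 in SH-SY5Y (TRPM1, undetected) and 0.404 in SH-EP2 (TRPM4). By direction, 6 probes were higher and 6 lower in each line, and the median log2 difference was −0.07 in SH-SY5Y and 0.04 in SH-EP2. For 11 of the 12 probes in SH-SY5Y and 8 of the 12 in SH-EP2, at least 1 of the compared groups was at background on both arrays.

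Some members nevertheless had groups that did not overlap. In SH-EP2 cells 4 of 12 TRPM probes had both TRPM7 shRNA arrays above both control arrays, a pattern of 22.1% of all probes, and 2 had them below (20.8%). Those above were TRPM6, both TRPM8 probes and TRPM3 ILMN_2302983, which no SH-EP2 array detected, and those below were TRPM4 and TRPM2 ILMN_2352380. In SH-SY5Y cells these numbers were 1 above (TRPM1, 20.0%) and 2 below (TRPM7 and TRPM3 ILMN_1740622, 19.2%), none of them detected. For the difference of the changes between the lines, 0 of 12 probes passed the adjusted threshold (1.40% of all probes) and 1, TRPM4, had an unadjusted p under 0.05 (10.3%).

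More TRPM probes differed between the lines than with TRPM7 shRNA, and so did more probes of the whole array. In the comparison of control SH-EP2 with control SH-SY5Y cells, 4 of 12 TRPM probes passed (TRPM4, TRPM6 and both TRPM8 probes), and all 4 were higher in SH-EP2 cells. Of all probes, 26.2% passed in this comparison and 12.2% were higher in SH-EP2 cells. Without overlap of the groups, 7 TRPM probes were higher in SH-EP2 cells (26.4% of all probes) and 2 were lower (28.9%). The 2 lower probes (TRPM7 and TRPM3 ILMN_2302983) were undetected on all control arrays. Among the higher probes the same held for TRPM1 and TRPM2 ILMN_1743987. The 2 TRPM8 probes measure the same gene and are not independent members.

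**Figure D3:**
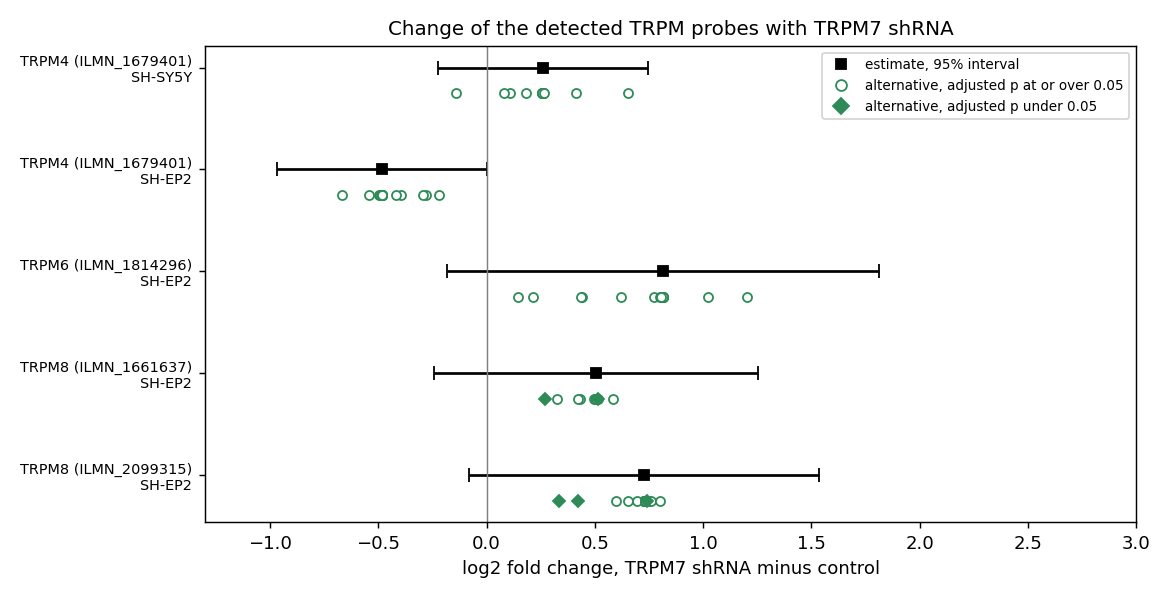
Log2 difference between TRPM7 shRNA and control arrays for the TRPM probes detected in both groups (squares, with 95% intervals), and under each alternative processing or with 1 array left out (green). All 5 intervals include 0, TRPM8 passed the adjusted threshold under 2 or 3 alternatives in SH-EP2, and TRPM4 in SH-SY5Y lay on either side of 0.

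Relatives outside the TRPM family were examined by function. Calls in these lists were few, and without the intensity trend of the variance model 0 genes of any list passed in either line. The closest by domain are the other alpha-kinases (ALPK1, ALPK2, ALPK3 and EEF2K), atypical kinases that share the fold of the TRPM6 and TRPM7 kinase domain. In this fit 0 of the 4 genes passed in either line, and 1 passed in SH-SY5Y cells when either SH-SY5Y control array was left out. The nearest to the threshold, named after its values were seen, was ALPK1, a sensor of bacterial sugar nucleotides, which was undetected in SH-SY5Y controls. Its mean with TRPM7 shRNA was 1.90-fold above the lowest detected signal of the SH-SY5Y control arrays. The fitted difference did not pass the test (adjusted p = 0.0569). EEF2K, detected on every array, was lower with TRPM7 shRNA in both lines and did not pass either. Its log2 level went from 7.26 ± 0.33 to 6.76 ± 0.15 (SD, n = 2) in SH-SY5Y cells. In SH-EP2 cells it went from 8.08 ± 0.03 to 7.81 ± 0.02. The medians of the list were −0.37 in SH-SY5Y and −0.07 in SH-EP2. Per gene with at least 1 called probe, 1.10% of all 31426 symbols were higher and 1.68% lower in SH-SY5Y cells. In SH-EP2 cells 2.00% were higher and 2.00% lower. These shares, given beside the lists below, were not matched to the lists in probes per gene or in detection.

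Of 17 other genes of magnesium transport and its control, 0 were higher (1.10% of all symbols) and 1 was lower (1.68%) in SH-SY5Y cells. In SH-EP2 cells 0 were higher and 2 lower (2.00% of all symbols each). The gene lowered in both lines was MMGT1, a membrane protein described as a magnesium transporter and a subunit of the ER membrane complex. Its log2 level fell from 9.78 ± 0.22 to 9.14 ± 0.05 (SD, n = 2) in SH-EP2 cells, a change of −0.64 (adjusted p = 0.000958). In SH-SY5Y cells it went from 10.11 ± 0.06 to 9.67 ± 0.01, a change of −0.45 (adjusted p = 0.0255). A second probe of MMGT1 changed by −0.76 and −0.54 (adjusted p = 0.00163 and 0.0352), and its remaining probe was undetected. TUSC3, an oligosaccharyltransferase subunit also linked to magnesium uptake, fell by 1.16 in SH-EP2 cells by 1 probe (adjusted p = 0.0229), whereas its brighter probe differed by −0.0039. With any 1 of the 4 SH-SY5Y arrays left out, 0 genes of the list passed in SH-SY5Y cells, and 1 passed in SH-EP2 cells after either control array, or the second TRPM7 shRNA array, of that line was left out. The median log2 difference of the list was 0.15 in SH-SY5Y and 0.00088 in SH-EP2, beside 0.0048 and 0.0061 over all probes.

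Among 19 TRP channels of other subfamilies, 0 passed in SH-SY5Y cells (1.10% of all symbols were higher and 1.68% lower). In SH-EP2 cells 0 were higher and 1 was lower (2.00% of all symbols each). This was PKD2, polycystin-2, a cation channel of the primary cilium and endoplasmic reticulum. Its level in SH-EP2 cells went from 8.74 ± 0.08 to 8.18 ± 0.02 (log2, SD, n = 2), a change of −0.56 (adjusted p = 0.00847), and a second probe changed by −0.74 (adjusted p = 0.0360). The call was lost when the second SH-EP2 control array or either SH-EP2 TRPM7 shRNA array was left out (0 genes of the list passed). The medians of the list were −0.12 in SH-SY5Y and −0.13 in SH-EP2.

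A further list held 14 genes for partners, substrates and ligand metabolism of TRPM channels. Of these, 3 were higher (1.10% of all symbols) and 0 lower (1.68%) in SH-SY5Y cells. In SH-EP2 cells 1 was higher and 2 were lower (2.00% of all symbols each). In SH-SY5Y cells ANXA1, a substrate of the TRPM7 kinase, rose from 5.25 ± 0.51 to 6.03 ± 0.24 (log2, SD, n = 2), a change of 0.78 (adjusted p = 0.0130). MYH10, the heavy chain of non-muscle myosin IIB, rose from 11.35 ± 0.07 to 11.73 ± 0.09, a change of 0.37 (adjusted p = 0.0201). ABCC8, the sulphonylurea receptor that associates with TRPM4, was undetected in the SH-SY5Y controls and at least 2.39-fold higher with TRPM7 shRNA. The adjusted p of its fitted difference was 0.00690. None of these passed in SH-EP2 cells, where ABCC8 was undetected on every array and so could not be measured. There, MYH9, the heavy chain of non-muscle myosin IIA and a TRPM7 kinase substrate, fell from 12.43 ± 0.01 to 11.73 ± 0.05, a change of −0.70 (adjusted p = 2.09e-05), with −0.65 by its second probe (adjusted p = 0.00140). PARG, which degrades poly-ADP-ribose, changed by 1.02 by 1 of 3 probes (adjusted p = 0.0433). Without SH-SY5Y control replicate 1, 0 genes of the list passed in SH-SY5Y cells, and without SH-SY5Y TRPM7 shRNA replicate 1, 1 passed. Leaving out any 1 of the 4 SH-EP2 arrays left 1 gene in SH-EP2 cells. The medians were −0.05 and −0.03.

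The genes whose profile over the 8 arrays was nearest to each detected TRPM probe were taken from 19425 probes detected on at least 4 arrays, by the root mean square difference of log2 levels after each profile was centred on its mean. Nearest to TRPM4 were LOC727848 (0.14), WNT3, a secreted Wnt ligand (0.15), and RAB23, a small GTPase of hedgehog signalling (0.15). Nearest to TRPM6 were CD36, a fatty acid scavenger receptor (0.20), the interferon-induced gene IFIT3 (0.25) and COL4A5, a basement membrane collagen chain (0.27). For TRPM8, ILMN_1661637 was nearest to PARP10, a mono-ADP-ribosyltransferase (0.18), the annexin ANXA8L2 (0.22) and GFPT2, an enzyme of the hexosamine pathway (0.23). The other TRPM8 probe was nearest to the proteoglycan CSPG4 (0.23), the tryptophan-degrading enzyme KYNU (0.26) and the serpin SERPINB7 (0.27). The TRPM8 probes differed from each other by 0.27, no less than from these genes. The 8 arrays share 2 lines and 2 shRNAs, and the likeness is a description of these arrays.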

How the data were processed

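Signals came from 8 Illumina HumanHT-12 v4 arrays, grouped by the cell line and shRNA of the labels. The authors extracted bead signal intensities, deposited without normalization on a linear scale, and a detection p-value per probe deposited beside each, in GenomeStudio 2011.1 per the labels. The study normalized by RMA and did not name its test. Here the RMA background correction was applied to the intensities, followed by quantile normalization across the 8 arrays and log2. limma 3.58.1 (R 4.3.3, statmod 1.5.0) was fitted to 4 groups over all 47322 probes with eBayes and an intensity trend. Tests were two-sided, and adjusted p-values are Benjamini-Hochberg over all probes. A probe undetected (detection p of 0.05 or more) on both arrays of 1 group has a bound only. An adjusted p given with a bound is that of the fitted difference, and the bounds were not tested. The procedure was also run on simulated arrays. Their changed probes were brighter than most TRPM probes, so that changes near background were not covered.

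All TRPM probes were named. Genes of the related lists were named where the adjusted p was under 0.05, as were the 3 nearest genes of each TRPM probe detected on at least 4 arrays. ALPK1 and EEF2K were named after their values were seen. Of the list genes, 1 enters the counts and is not reported here singly. The gene members, lists and tests were chosen with earlier results of these data known. Symbols are those of the deposited table, and ANXA8L2 is now ANXA8L1. Promoters were taken from RefSeq (GRCh38.p14), with 7 of 8 members matched. The number of arrays limits the precision. The sources do not say that the replicate numbers pair the samples, and the main fit used no pairing. Sequences of the probes and of the shRNA were not used here. The alternatives comprised background by neqc (offset 16), by normexp (offset 50) or uncorrected, scaling to the median, a filter to probes that 2 or more arrays detected, no intensity trend, a per-probe test with equal variances, each line alone, a replicate block, and leaving out each array.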

Additional observations from a re-analysis of the deposited data

How the results depend on the processing

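The count of TRPM probes that passed with TRPM7 shRNA in SH-SY5Y cells was 0 under all 18 alternatives. In SH-EP2 cells it was 0 except for 1 with normexp, 2 without background correction and 2 in SH-EP2 arrays alone, all of them TRPM8 probes. The difference of the changes between the lines gave 0 except without background correction (1, TRPM8 ILMN_2099315). The comparison of the controls gave 3 to 5 probes. TRPM4 was not called there without the intensity trend (adjusted p = 0.0534) or with the per-probe test (0.120), and TRPM2 ILMN_2352380 was called with neqc (0.0453) and without SH-EP2 control replicate 1 (0.0252). TRPM4 in SH-SY5Y cells reversed to −0.14 without SH-SY5Y control replicate 1, within a range of −0.14 to 0.66 when each array was left out. The causes were not tested. Leaving out each array gave 0 to 0 TRPM probes in each comparison with TRPM7 shRNA and in the difference of the changes, and 3 to 5 between the controls.

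Over all probes, 999 passed in SH-SY5Y, 1429 in SH-EP2 and 662 for the difference of the changes. Without the intensity trend these were 64, 100 and 23, and with the per-probe test 50, 103 and 15. Each line alone gave 846 in SH-SY5Y and 2587 in SH-EP2. Without background correction 1248 passed for the difference, and with normexp 1153. Leaving out each array gave 622 to 958 in SH-SY5Y, 675 to 1596 in SH-EP2 and 399 to 650 for the difference. Counts of the related lists ranged from 0 to 4. All were 0 without the intensity trend, and with the per-probe test all were 0 except 1 magnesium transport gene in SH-EP2. Signal over background limited the probes of TRPM1, TRPM2, TRPM3, TRPM5 and TRPM7.

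Replicates with the same number did not deviate together over the 14577 probes detected on all arrays. The correlation was −0.00447 for SH-EP2 and −0.111 for SH-SY5Y. These values cannot show that no pairing or batch exists, and the labels name neither. With the replicate block, 0, 0 and 0 TRPM probes passed in SH-SY5Y, in SH-EP2 and for the difference, and 4 between the controls, with 801, 1136, 500 and 10323 of all probes. A crossed pairing in SH-SY5Y, added after seeing the data, gave 1420 calls in SH-SY5Y and 1873 in SH-EP2, beside 999 and 1429 without a block.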
